A study of Mus musculus with 4 samples.

Results

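Coding and 5'UTR clusters of nuclear mRNAs are the Argonaute (AGO) binding clusters that the authors' tables assign to coding sequence, a 5'UTR, a start codon or a stop codon outside the mitochondrial chromosome. Those at start and stop codons are included wherever coding and 5'UTR clusters are counted together. They were chosen by that annotation alone, and they numbered 608 of 2659 clusters in mouse embryonic stem cells (ESCs) and 88 of 889 in C2C12 myotubes, or 696 of 3548 in all. The series mapped RNA bound by AGO with PAR-CLIP, in which a photoactivatable nucleoside crosslinks RNA to the bound protein and leaves T-to-C conversions in the sequenced reads. Cytoplasmic libraries were analysed here, 1 per cell type, and the nuclear samples of both cell types were not analysed here. Every sample title ends in "(2)" without explanation, and each was taken as 1 library.

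The ESC group carried HA-Flag-AGO2 under a doxycycline-inducible promoter, was given 2.5 ug/ml doxycycline for 15 h, and its AGO2 was captured with FLAG-M2 antibody. The other group was the cytoplasm of C2C12 myotubes, muscle fibres fused for 2 days from a mouse myoblast line, with no tagged protein. Its AGO was captured with a peptide that binds the whole AGO family. Both groups were crosslinked at 312 nm for 5 min and treated before and after the capture with RNase T1, an enzyme that cleaves 3' of G. Cell type, source of AGO and capture method changed together, so their parts in a difference cannot be told apart. RNA levels were not measured, so AGO binding, fewer cells and less RNA of a gene cannot be told apart either. The myotubes came from a single cell line.

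AGO proteins hold a miRNA and use its seed, the bases near its 5' end, to pair with target RNA. Effective sites are best known in 3'UTRs, where a bound AGO complex leads to repression and decay of the mRNA. AGO also crosslinks within coding sequence, which ribosomes traverse during translation, and such sites are known to repress more weakly on average than those in 3'UTRs. The 5'UTR carries the scanning ribosome and often holds pyrimidine-rich stretches.

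The labels of both libraries were checked on marker genes. Of 20 pluripotency genes, 10 had a cluster of any class in ESCs and 0 in myotubes, and of 36 skeletal muscle genes, 4 had one in ESCs and 11 in myotubes. The cluster reads of the muscle genes were 562 in ESCs and 405 in myotubes, of which 6 and 144 lay in coding and 5'UTR clusters. Of 8 neuronal genes 1 had an ESC cluster (Stmn2, 6 reads) and 0 a myotube cluster, and the 8 blood and liver genes and 8 fibroblast genes had 0 in both. The tables held 214955 cluster reads in ESCs and 135023 in myotubes, of which 27.6% and 50.3% were mitochondrial. A gene without a cluster was below the authors' calling limit, which is not the same as unbound.

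The sequences that carry the seed results come first, because the clusters are short enough to be read whole. The mature miRNAs are from RefSeq (GRCm38.p6), 5′ to 3′, with the seed (bases 2 to 8) in capitals.
miR-17-5p: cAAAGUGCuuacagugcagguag
miR-290a-3p: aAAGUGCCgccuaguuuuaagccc
miR-294-3p: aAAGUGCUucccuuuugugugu
miR-130a-3p: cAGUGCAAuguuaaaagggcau
let-7a-5p: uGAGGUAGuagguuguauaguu
miR-27b-3p: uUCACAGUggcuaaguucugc
The seeds of miR-17-5p, miR-290a-3p and miR-294-3p overlap in AAGUGC, so 1 stretch of RNA can hold sites for several of them. miR-20a-5p, miR-106b-5p and miR-93-5p have the seed of miR-17-5p and count with it.

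The clusters shown next are examples of each site, chosen after their values were seen, together with both libraries' clusters in Orc5. They are the authors' sequences as deposited, on mm10, 5′ to 3′ on the RNA strand, with the 7-base seed match in capitals.
Npepps, ESC, coding, chr11:97213770-97213790, minus strand, miR-17-5p site: tccttacttttGCACTTTcag
Ube3c, ESC, coding, chr5:29600746-29600768, plus strand, miR-17-5p site: tcctaaaaccattGCACTTTacg
Mat2a, ESC, coding, chr6:72435049-72435075, minus strand, miR-290a-3p site: tccattttccattatGGCACTTctcag
Pbrm1, ESC, coding, chr14:31046367-31046386, plus strand, miR-290a-3p site: caattaccatGGCACTTcag
Prrc2c, ESC, coding, chr1:162682493-162682514, minus strand, let-7a-5p site: tacttacaCTACCTCttcattg
Anp32e, myotube, coding, chr3:95934832-95934856, plus strand, let-7a-5p site: tccaaatcttacCTACCTCaatctg
Atr, myotube, coding, chr9:95888213-95888236, plus strand, let-7a-5p site: ctatctttcaCTACCTCatcattg
Orc5, ESC, coding, chr5:22526550-22526572, minus strand, miR-27b-3p site: tttccccaaatACTGTGAacctg
Orc5, myotube, coding, chr5:22526550-22526577, minus strand, miR-27b-3p site: cttaatttccccaaatACTGTGAacctg
In Npepps, a miR-130a-3p site (TTGCACT) and a miR-19b-3p site (TTTGCAC) overlap the miR-17-5p site.

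Coding and 5'UTR clusters were a larger share of the ESC table than of the myotube table. In ESCs they made up 22.9% of the table (95% exact binomial interval 21.3 to 24.5), and in myotubes 9.90% (interval 8.01 to 12.1). Their reads were 6667 in ESCs, or 3.10% of all cluster reads (interval 3.03 to 3.18), and 877 in myotubes, or 0.650% (interval 0.607 to 0.694). Without the mitochondrial reads the shares were 4.29% and 1.31%. The intervals of the libraries did not overlap in either measure. Each group had 1 library, so no test between them was possible. All intervals cover counting error only, because reads amplified by PCR and lacking molecular identifiers are not separate molecules.

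Coding sequence held 558 of the ESC clusters and 76 of the myotube clusters. The 5'UTR held 39 ESC clusters, 1.47% of the table (interval 1.05 to 2.00), and 9 myotube clusters, 1.01% (interval 0.464 to 1.91). For the 5'UTR, unlike for coding sequence, these intervals overlapped. Start codons held 4 ESC and 2 myotube clusters, and stop codons held 7 and 1. In reads, coding clusters had 5469 in ESCs and 658 in myotubes, and 5'UTR clusters had 930 and 184. The 5'UTR share of reads was 0.433% in ESCs and 0.136% in myotubes.

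**Figure D1:**
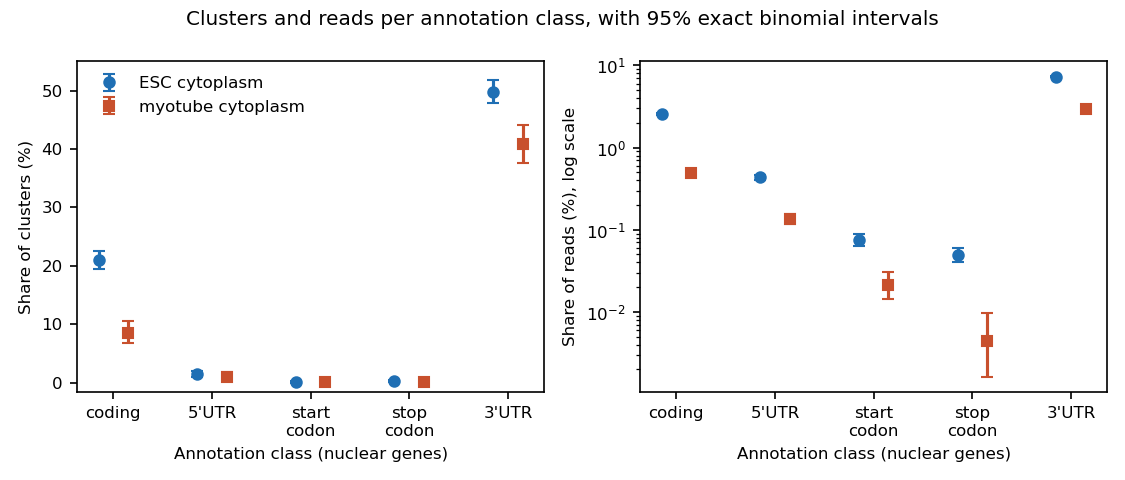
Share of clusters (left) and share of cluster reads (right, log scale) in each annotation class of nuclear genes, for the ESC library (circles) and the myotube library (squares), with 95% exact binomial intervals as bars. Coding clusters were 21.0% of the ESC table and 8.55% of the myotube table, and 3'UTR clusters 49.8% and 40.8%.

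Most coding clusters were shallow and short. The median coding cluster had 8 reads in ESCs and 7 in myotubes, beside 8 in the 3'UTR clusters of both libraries. The deepest had 106 reads in ESCs and 37 in myotubes. ESC 5'UTR clusters were deeper, with a median of 12 reads (interval 9 to 20) and a maximum of 155, while the 9 myotube 5'UTR clusters had a median of 7 and a maximum of 96. Of ESC 5'UTR clusters 61.5% had at least 10 reads, against 34.6% of coding clusters.

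Median length was 21 nt in ESC coding clusters, 22 nt in ESC 5'UTR clusters and 22 nt in ESC 3'UTR clusters. The myotube medians were 23, 24 and 23 nt. No class had a cluster under 20 nt, and the longest of the 696 had 52 nt in ESCs and 39 nt in myotubes. Only 6 ESC clusters and 1 myotube cluster exceeded 30 nt.

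Coding clusters held more C and less T than 3'UTR clusters, and 5'UTR clusters held the most pyrimidines. Coding clusters of ESCs held 33.4% C and 32.5% T, whereas 3'UTR clusters held 27.2% C and 38.4% T. G was 4.95% of bases in coding and 6.51% in 3'UTR clusters. A G before the last base was missing from 86.2% of ESC coding clusters and 72.0% of ESC 3'UTR clusters, and from 89.5% and 83.2% in myotubes. Pyrimidines made up 73.5% of bases in ESC 5'UTR clusters and 78.6% in myotube 5'UTR clusters, beside 65.9% and 66.9% in coding clusters. Of ESC coding clusters 78.1% ended in G, and of ESC 5'UTR clusters 61.5%.

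T-to-C conversion, the mark of crosslinking, had medians in coding clusters that were close to those in 3'UTR clusters, with lower medians in 5'UTR clusters. The median share of converted reads in ESCs was 80% in coding clusters (interval 80 to 83.3), 77.8% in 3'UTR clusters (interval 75 to 80) and 64.3% in 5'UTR clusters (interval 50 to 80). In myotubes it was 100% in coding clusters (interval 90.9 to 100), 90.0% in 3'UTR clusters (interval 86.1 to 100) and 71.4% in 5'UTR clusters (interval 47.4 to 100). The intervals of adjacent classes touched or overlapped in each library, and no test of these differences was made. Summed over clusters, 73.5% of ESC coding reads, 52.2% of ESC 5'UTR reads and 68.0% of ESC 3'UTR reads were converted.

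Conversion differed with read number, so the classes are also given at like depth. Among coding and 5'UTR clusters, those with 5 reads had 80% or 100%. None with 8 reads was below 50%, and the lowest with 14 reads had 28.6%. Low shares were thus missing from shallow clusters, so read number and the authors' calling limit cannot be told apart in these medians. ESC coding clusters had a median of 85.7% with under 10 reads (365 clusters), 70.3% with 10 to 19 reads (162 clusters) and 58.1% with 20 or more (31 clusters). ESC 5'UTR clusters had 87.5%, 60.0% and 46.2% in the same ranges, in 15, 11 and 13 clusters. ESC 3'UTR clusters had 83.3%, 66.7% and 57.8%. In ESCs the 5'UTR median was below that of coding clusters with 10 or more reads but not with fewer. With 20 or more reads it stood at 46.2% (interval 39.0 to 65.4) against 58.1% (interval 48.3 to 66.7), with overlapping intervals. In myotubes coding clusters had 100%, 76.9% and 81.0% in these ranges, in 52, 21 and 3 clusters. Myotube 5'UTR clusters had 80%, 38.0% and 63.8%, in 5, 2 and 2 clusters, and 3'UTR clusters had 100%, 71.4% and 79.5%. The myotube medians were thus lowest with 10 to 19 reads in each class.

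**Figure D2:**
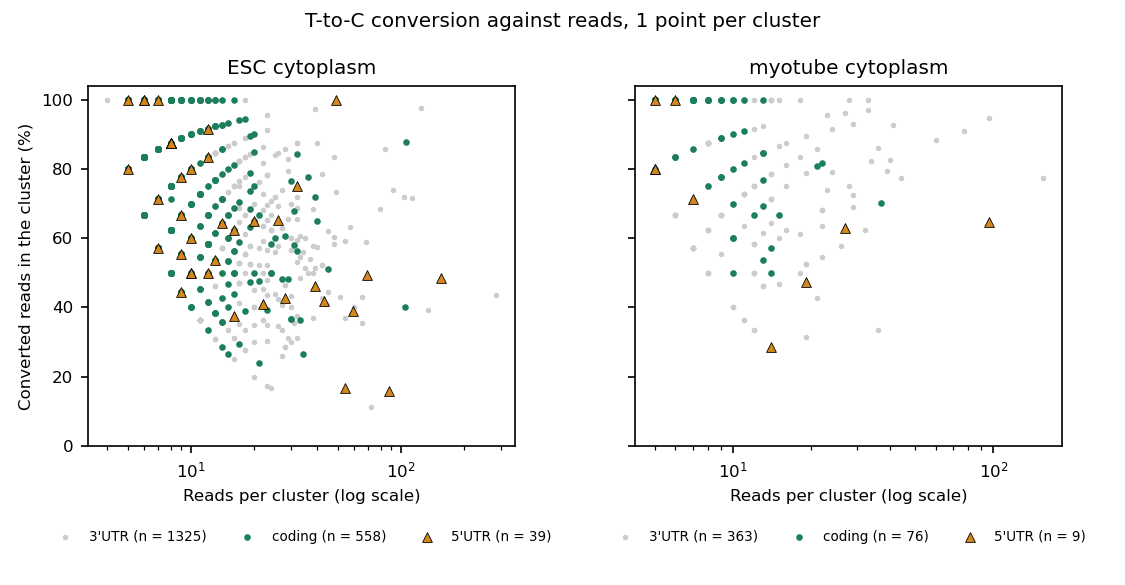
Share of converted reads (%) against reads per cluster (log scale), with 1 point per cluster, in ESCs (left) and myotubes (right) for 3'UTR (grey), coding (green) and 5'UTR clusters (triangles). Clusters with all reads converted were 31.7% of ESC coding clusters and 12.8% of ESC 5'UTR clusters, and the deepest clusters lie below 100% in both libraries.

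The ESC clusters lay in 482 genes, of which 402 had 1 such cluster, 53 had 2 and 27 had at least 3. The myotube clusters lay in 83 genes, of which 78 had 1 and 5 had 2. The leading 10 genes held 16.1% of the reads in ESCs and 36.8% in myotubes. Genes with such a cluster were 33% of all 1461 genes with a cluster in ESCs and 17.2% of all 483 in myotubes.

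Most of these genes had no 3'UTR cluster in the same library. In ESCs 346 of the 482 genes lacked one, or 71.8% (interval 67.5 to 75.8), where 40.4% of all genes with a cluster lacked one. In myotubes 56 of 83 genes lacked one, or 67.5% (interval 56.3 to 77.4), where 43.1% of all genes did. A gene enters the list of all genes through a cluster of any class, 3'UTR included, so the background share is lower by construction and is no test. By class, 316 of 441 genes with coding clusters and 25 of 38 with 5'UTR clusters lacked a 3'UTR cluster in ESCs, and in myotubes 52 of 74 and 4 of 9 did. With 3'UTR clusters of either library counted, 41 of the 83 myotube genes still lacked one (49.4%), and 335 of the 482 ESC genes did (69.5%).

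The 2 kinds of cluster met in 136 ESC genes, which are 15.6% of the 871 genes with a 3'UTR cluster, and in 27 myotube genes, 9.82% of 275. In 52 of the 136 ESC genes and 4 of the 27 myotube genes, coding and 5'UTR clusters together had more reads than the 3'UTR clusters. Of the 80 ESC genes with at least 2 coding or 5'UTR clusters, 46 lacked a 3'UTR cluster (57.5%).

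The ESC gene with the most coding reads was Npepps, a puromycin-sensitive aminopeptidase, with 106 reads in the cluster printed above. Its conversion was 87.7%, and it had no 3'UTR cluster and no myotube cluster of any class. Npm1, a nucleolar chaperone, had 105 reads in 1 cluster at chr11:33156673-33156692, with 40.0% converted and only 7 distinct sequences. Npm1 has near-identical pseudogene copies, so its value is uncertain, as are those given here for histone genes, Eef1a1, Fth1, Hsp90ab1, Naca, Rpl8 and Rplp0. How reads with several matches in the genome were handled is not given in the sources used here.

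Polr2a, the largest subunit of RNA polymerase II, was the gene with the most clusters. It had 101 ESC reads in 9 coding clusters of 7 to 19 reads within chr11:69734622-69747496, and 94 reads in 2 3'UTR clusters. Several of the coding clusters lay together at chr11:69734622-69735334 with similar sequences, so the assignment of reads among them is uncertain. Eif4g2, a translation initiation factor, had 100 ESC reads in 5 coding clusters within 1054 nt, and 36 reads in its 3'UTR. Ei24, an endoplasmic reticulum membrane protein, had 78 reads in 5 clusters with 41.0% converted. In these genes no single cluster dominated, unlike in Npepps and Npm1. Ddb1, the adaptor of CUL4 ubiquitin ligases, had 71 reads in 4 clusters, and the spliceosomal helicase gene Snrnp200 had 58 in 5.

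Calr, the calcium-binding chaperone calreticulin, had 64 ESC coding reads in 2 clusters, of which 31.3% were converted. Fn1, which encodes the matrix protein fibronectin, had 62 coding reads in 3 clusters and 69 reads in 1 5'UTR cluster. The HSP90 genes Hsp90ab1 (cytosolic) and Hsp90b1 (endoplasmic reticulum) had 53 and 49 reads, and the histone acetyltransferase gene Hat1 had 47. Of these 12 leading ESC genes, Calr, Eif4g2 and Fn1 also had a coding cluster in myotubes.

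In ESCs 24 genes had at least 3 coding clusters, and in myotubes 0 genes did. Beside those already named they included the clathrin heavy chain gene Cltc (42 reads in 3), the ubiquitin ligase gene Huwe1 (32 in 4, over 79222 nt), the histone methyltransferase gene Nsd1 (31 in 4), the nuclear import gene Ipo7 (28 in 4), the mismatch repair gene Msh6 (29 in 3) and the nucleoporin genes Nup98 (25 in 3) and Nup153 (23 in 3). Tet1, a DNA demethylase, had 32 reads in 3 coding clusters and 93 reads in 10 3'UTR clusters. Prpf8, a core spliceosome protein, and Pabpc1, the cytoplasmic poly(A)-binding protein, had 32 and 30 reads in 3 coding clusters and no 3'UTR cluster. Of 126 pairs of neighbouring clusters in ESC genes, 10 pairs in 9 genes lay under 100 nt apart. In myotubes 0 of 5 pairs did, too few to compare. These are genomic gaps, which include introns. Among the 10 close ESC pairs were those of Snrnp200 (11 nt), Sox2 (28 nt), Polr2a (42 and 90 nt) and Eif4g2 (67 nt).

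In myotubes the leading coding gene was Fth1, the ferritin heavy chain, with 37 reads in 1 cluster and 70.3% converted. Cd164, a sialomucin, had 24 reads in 2 coding clusters and 88 reads in 7 3'UTR clusters. Atf4, the transcription factor of the integrated stress response, had 22 coding reads and 19 5'UTR reads, and no 3'UTR cluster. The membrane protein gene Serinc3 and the endophilin gene Sh3glb1 had 21 reads each. Anp32e, a chaperone of the histone variant H2A.Z, and the kinase gene Stk17b had 14 each, and Minos1, Myog, Naca, Popdc3 and Thoc7 had 13 each. Myog, the myogenic transcription factor myogenin, had those 13 reads at chr1:134290071-134290090 and 36 in its 3'UTR. Serinc3, Sh3glb1, Stk17b, Myog, Naca, Popdc3 and Thoc7 had no coding or 5'UTR cluster in ESCs. Fth1, Cd164, Atf4 and Minos1 had a coding cluster there, and Anp32e a 5'UTR cluster of 20 reads.

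The 5'UTR clusters with the most reads included pluripotency genes in ESCs and a muscle gene in myotubes. The sequences of 7 of them are shown so that their pyrimidine content can be read, and were chosen after their values were seen. They are given as deposited on mm10, with no base in capitals, since no seed match is marked in them.
Hist1h2ae, ESC, chr13:23571114-23571137, minus strand: caattataatttcctaccttcttg
Fn1, ESC, chr1:71653083-71653106, minus strand: tcctctccttccatctccttaccg
Sox2, ESC, chr3:34650162-34650187, plus strand: cctttccaaaaactaatcacaacaat
Hnrnpc, ESC, chr14:52103889-52103913, minus strand: tctcttctctctctccttccttttg
Nanog, ESC, chr6:122707681-122707701, plus strand: acatttaactcttctttctat
Mylpf, myotube, chr7:127211706-127211727, plus strand: attctcttcctttttccatctg
Atf4, myotube, chr15:80255543-80255564, plus strand: tccctttcctcttcccctcccg
Pyrimidines were 96.0% of the Hnrnpc cluster, 95.5% of the Atf4 cluster, 87.5% of the Fn1 cluster and 86.4% of the Mylpf cluster, but 53.8% of the Sox2 cluster. The lowest share of the 39 ESC 5'UTR clusters was 40.0%, in Ccdc129. At least 80% of bases were pyrimidines in 15 of 39 ESC and 5 of 9 myotube 5'UTR clusters.

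In ESCs the histone H2A gene Hist1h2ae had 155 5'UTR reads with 48.4% converted and no 3'UTR cluster. The pluripotency factor Sox2 had 73 5'UTR reads in 2 clusters of 59 and 14 reads, beside 64 reads in its 3'UTR. Nanog, another pluripotency factor, had 43 5'UTR reads and 74 3'UTR reads. Neither Sox2 nor Nanog had a myotube cluster. Fn1 had 69 reads with 49.3% converted, and Pdia3, a disulfide isomerase of the endoplasmic reticulum, had 39 with 46.2% converted.

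Other deep 5'UTR clusters had low conversion or few distinct sequences. Cpsf4l had 88 ESC reads with 15.9% converted in 5 distinct sequences, and the splicing regulator gene Hnrnpc had 54 with 16.7% converted. Ccdc129 had 49 reads, all converted, in 3 distinct sequences, and its cluster was 45.0% G, the highest share of the 39. Neither the part of PCR copies in these clusters nor the placement of their reads in the genome was tested.

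In myotubes Mylpf, the regulatory light chain of fast muscle myosin, had 96 5'UTR reads with 64.6% converted, 10.9% of all myotube coding and 5'UTR reads, and 14 3'UTR reads. Scd2, a fatty acid desaturase, had 27 reads, Atf4 19 and the growth factor binding protein gene Igfbp5 14. The Wnt secretion factor gene Wls had 7 reads, Zdhhc5 had 6, and Anp32e and the fast troponin I gene Tnni2 had 5 each. Tnni2 had no 3'UTR cluster. The median 5'UTR cluster lay 254 nt downstream of the nearest RefSeq start in ESCs, over the 31 of 39 clusters with a start, and 261 nt in myotubes, over 7 of 9. Only 5 ESC clusters and 1 myotube cluster lay within 100 nt, and 9 ESC clusters lay beyond 1000 nt. These are genomic distances, which include introns.

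**Figure D3:**
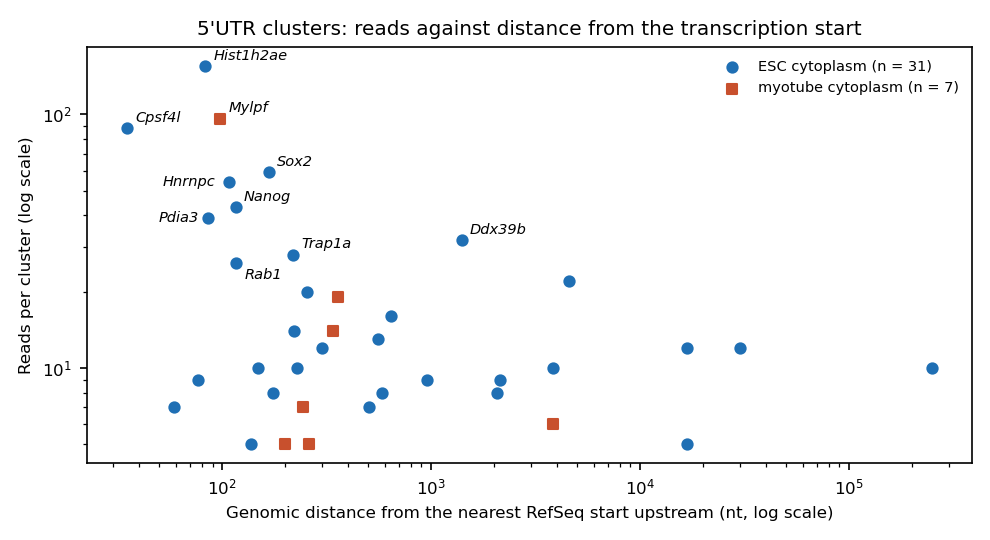
Reads per 5'UTR cluster against genomic distance from the nearest upstream RefSeq transcription start (both log scales), for 31 ESC clusters (circles) and 7 myotube clusters (squares), with genes of at least 26 reads named. Hist1h2ae, Cpsf4l and Mylpf, the deepest clusters with a start, lie 83, 35 and 98 nt from it.

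The 6 start codon clusters are shown because 5 of them end in ATG, which is in capitals.
Hist1h3d, ESC, chr13:23575782-23575804, plus strand: acttctctctttttcttatcATG
Rc3h2, ESC, chr2:37414731-37414753, minus strand: ttccacaATGcctgtgcaggcag
Trmt10c, ESC, chr16:56035268-56035289, minus strand: ttcctcacatttcttcaaaATG
Slc20a2, ESC, chr8:22535262-22535286, plus strand: accccagagcccattttccaaaATG
Myl1, myotube, chr1:66944903-66944927, minus strand: ttaacccatccttttaatcaaaATG
Cdc42ep3, myotube, chr17:79335487-79335507, minus strand: acattctcaaattccaaaATG
The G of ATG is a position at which RNase T1 cuts. Ends in ATG were also found in 12.7% of ESC and 7.89% of myotube coding clusters, and in 11.5% of ESC and 14.6% of myotube 3'UTR clusters. They were found in 0 of 39 ESC and 0 of 9 myotube 5'UTR clusters. Such an end was thus not confined to start codons.

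Histone H3 gene Hist1h3d held 138 of the 162 ESC reads at start codons, with 40.6% converted in 41 distinct sequences. The RNA-binding protein gene Rc3h2 had 12 reads, the mitochondrial tRNA methyltransferase gene Trmt10c 7 and the phosphate transporter gene Slc20a2 5. In myotubes the muscle myosin light chain gene Myl1 had 19 reads with 78.9% converted, and Cdc42ep3, a CDC42 effector, had 10 with 100% converted. At stop codons the ESC reads were 26 in Hist1h2ag, 23 in Ifitm3, 17 in Lbr, 15 in Hist1h3i, 11 in Pabpn1, 8 in Mettl16 and 6 in Rnf4. Ogn had 6 in myotubes. A stop triplet was present in 6 of the 8 stop codon cluster sequences, and ATG in all 6 start codon cluster sequences.

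The gene groups are given by how many of their genes with a cluster had a coding or 5'UTR cluster, which 33% of all ESC genes with a cluster had. Translation factors had 12 of 15, led by Eif4g2 (100 reads), the elongation factor Eef1a1 (31), Pabpc1 (30) and Eif3l (17). Chromatin regulators had 18 of 29, with Tet1 (32 reads), the remodelling subunit Smarcc1 (22), the helicase Chd4 (20) and the DNA methyltransferase Dnmt1 (20). Chaperones and proteasome genes had 11 of 19, with Hsp90ab1, Hsp90b1, the chaperonin subunit Cct8 (32) and the mitochondrial chaperone Hspa9 (31). Splicing and RNA-binding genes had 20 of 37, with Snrnp200, Hnrnpc and the helicases Dhx15 (35) and Ddx39b (32). The shares of these 4 groups were above 33%, but the groups were defined by symbols, their genes differ in length and RNA level, and the differences were not tested.

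The other ESC groups held 24 or fewer genes with a cluster. C2H2 zinc finger genes had 6 of 24, while 21 of them had a 3'UTR cluster. Histones had 4 of 13, cytoskeleton genes 3 of 10, RNA polymerase II and its regulators 4 of 10, ribosomal proteins 2 of 4 (Rpl8 with 20 reads and Rplp0 with 6), glycolysis 1 of 2 (the glucose transporter Slc2a3, 45 reads), the integrated stress response 2 of 3 (Asns with 12 and Atf4 with 7) and extracellular matrix 1 of 4 (Fn1). The pluripotency genes had 6 of 10, with Sox2, Nanog, Tfcp2l1 (16 reads) and Dppa5a, Tbx3 and Tdgf1 (8 each). Of these, Dppa5a and Tdgf1 had no 3'UTR cluster.

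In myotubes, where 17.2% of all genes with a cluster had a coding or 5'UTR cluster, the muscle genes had 6 of 11, with Mylpf (96 reads), Myl1 (19), Myog (13), the embryonic myosin heavy chain Myh3 (6), Tnni2 (5) and titin, Ttn (5). In ESCs 1 of 4 muscle genes with a cluster had one there, Ttn with 6 reads. The other groups were small in myotubes. Splicing and RNA-binding genes had 0 of 9, cytoskeleton genes 0 of 5, translation factors 1 of 3 (Eif4g2, 10 reads), chromatin regulators 2 of 5 (Chd4 and Kdm5c, 7 each), chaperones 2 of 3 (Hspa5, 10, and Hspa9, 7) and zinc finger genes 1 of 4 (Zbtb18, 5). Histones, ribosomal proteins and RNA polymerase II genes had 0 of 1 each and glycolysis genes had no cluster, while the stress response had 1 of 1 (Atf4, 41 reads) and the matrix list 1 of 4 (Fn1, 6).

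Few coding and 5'UTR clusters were at the same place in both libraries. Overlaps of 1 nt or more, strand included, joined 15 ESC clusters, 2.47% of the 608 (interval 1.39 to 4.04), to 15 myotube clusters, 17.0% of the 88 (interval 9.87 to 26.6). Over all clusters 11.6% of the ESC table and 34.4% of the myotube table overlapped the other. Without the mitochondrial chromosome these shares were 8.67% and 28.9%. Between 3'UTR clusters the shares were 6.04% and 22%. The shares of coding and 5'UTR clusters were below all of these, and the differences were not tested. In myotubes their interval overlapped that of 3'UTR clusters (17.9 to 26.7) and that of all clusters outside the mitochondrial chromosome (25.7 to 32.3).

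Where they did overlap, the clusters lay almost exactly on each other. Of the 15 pairs, 7 had both ends in common, 11 had the same 5' end and 11 the same 3' end, and the largest shifts were 5 nt and 3 nt. Eif4g2 had 30 ESC and 10 myotube reads at chr7:111074465-111074489. Calr had 30 and 8 reads at chr8:84844754-84844776, where 36.7% were converted in ESCs and 100% in myotubes. Fn1 had 15 and 6 reads at chr1:71606703-71606723. Fth1 had 9 and 37 reads from chr19:9984224-9984246 in ESCs, and Atf4 had 7 and 22 from chr15:80257003-80257027.

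Another 9 pairs had 5 to 16 reads in each library. They were Bsg (13 ESC and 11 myotube reads), Minos1 (10 and 13), Orc5 (16 and 6), Cd164 (6 and 15), Snx3 (14 and 6), Mrps16 (8 and 10), Ubap2l (5 and 13), Scpep1 (10 and 5) and, in the 5'UTR, Zdhhc5 (10 and 6). Conversion was higher in the myotube cluster of 11 pairs and equal in that of Orc5. Over all clusters the median conversion was also higher in myotubes, at 83.3% against 80% in ESCs. As raw counts, not set against each library's total, reads were higher in ESCs in 8 pairs and in myotubes in 7.

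By gene, 24 genes had coding or 5'UTR clusters in both libraries, 15 of them at overlapping positions and 9 at other positions only. Fn1 had 131 ESC and 6 myotube reads, a log2 ratio of read shares of 3.78 (interval 2.62 to 5.25). Eif4g2 had 100 and 10 reads, a log2 ratio of 2.65 (interval 1.71 to 3.75), and Calr had 64 and 8, a log2 ratio of 2.33. Toward myotubes, Atf4 had 7 and 41 reads with a log2 ratio of -3.22 (interval -4.62 to -2.05), Fth1 9 and 37 with -2.71, Cd164 6 and 24 with -2.67, and Igfbp5 7 and 14 with -1.67. The sums add up all such clusters called in a gene, while Fth1 and Igfbp5 had 1 in each library. Per nt of cluster, Fn1 had 1.46 reads in ESCs over 90 nt and 0.286 in myotubes over 21 nt, and Atf4 had 0.280 over 25 nt and 0.891 over 46 nt.

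At least 2-fold differences favoured ESCs in 8 of the 24 genes (33.3%), where 26.6% of all 237 genes with a cluster in both libraries did, and myotubes in 6 (25%), where 27% did. The interval lay above 0 in 7 genes (29.2%, beside 25.3% of the 237) and below 0 in 4 (16.7%, beside 26.2%). The values of the 237 genes use their clusters of all classes, and none of these differences was tested. The median log2 ratio was 0.20 over the 24 genes and -0.04 over the 237. With nuclear mRNA reads as the total the median of the 237 genes shifted by -1.54, and without mitochondrial reads by -0.54. A change of total shifts all genes alike, and it turned the balance of the 24 genes. At least 2-fold higher in ESCs and in myotubes were then 2 and 13 genes with nuclear mRNA reads as the total, and 3 and 10 without mitochondrial reads. With nuclear mRNA reads as the total Hspa9, Orc5, Septin2 and Ubap2l had log2 ratios from -0.060 to -0.26, with intervals that included 0. Calr then had a log2 ratio of 0.79 with an interval from -0.27 to 2.07.

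**Figure D4:**
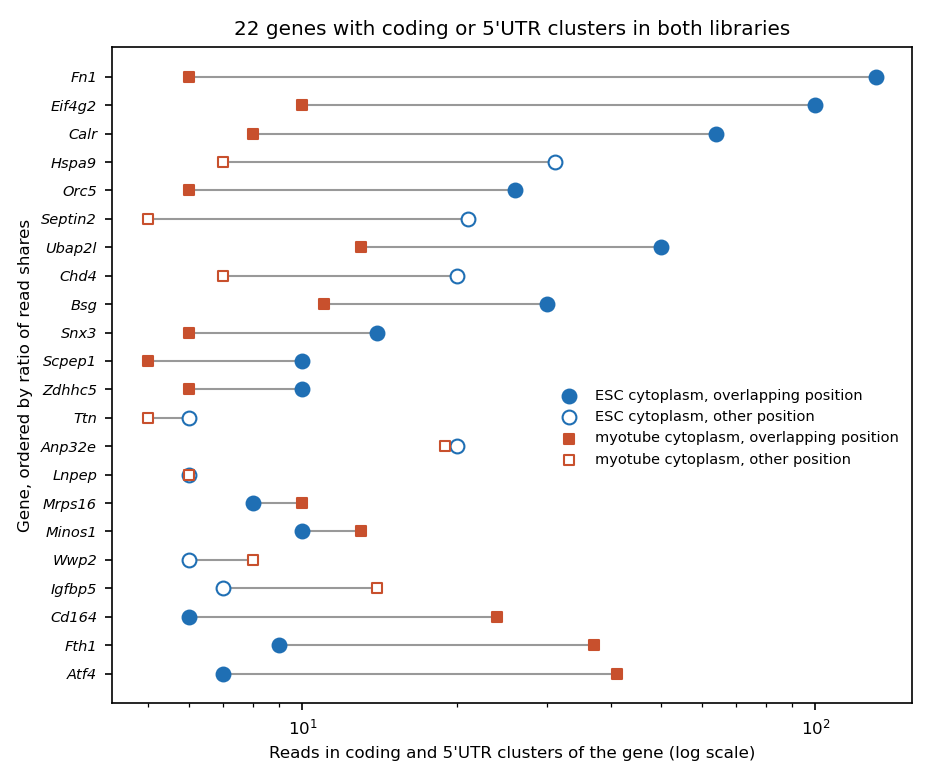
Reads in coding, 5'UTR, start and stop codon clusters (log scale) of 22 of the 24 genes with such clusters in both libraries, ordered by ratio of read shares, with ESC circles and myotube squares, filled where clusters of the libraries overlap in position. Fn1 and Eif4g2 lie farthest toward ESCs and Atf4 and Fth1 farthest toward myotubes, while Lnpep has 6 reads in each.

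Matches to miRNA seeds were found in like shares of coding and 5'UTR clusters and of 3'UTR clusters in ESCs, and in too few myotube clusters to compare. A 7mer-m8 site, the complement of miRNA bases 2 to 8, of any of 22 listed families was present in 47 of 608 clusters, or 7.73% (interval 5.73 to 10.1), beside 8.75% of ESC 3'UTR clusters and 7.18% of all ESC clusters. In myotubes 4 of 88 clusters had one, or 4.55% (interval 1.25 to 11.2), beside 8.54% of 3'UTR clusters and 5.96% of all clusters. All these intervals overlapped. Only 2 families of other tissues, miR-9-5p and miR-208a-3p, were searched, so their joint counts cannot be set directly against those of the 22 listed families. They matched 3 of 608 ESC clusters (0.493%), all by miR-9-5p, and 0 of 88 myotube clusters. Single listed families matched from 0 of the 608, as miR-25-3p did, to 15, as miR-17-5p did. In 3'UTR clusters the 2 families of other tissues matched 2 of 1325 in ESCs (0.151%) and 2 of 363 in myotubes (0.551%). A count of 0 of 88 allows up to 3.41% by a limit of 3 counts and 4.11% by the exact interval. Sites were searched on the RNA strand inside the cluster sequences, and a site beyond a cluster's ends was not seen.

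The miR-17-5p site GCACTTT was the most frequent, in 15 ESC clusters (2.47%) beside 2.87% of ESC 3'UTR clusters and 0 myotube clusters. Npepps had 106 reads and Ube3c, a ubiquitin ligase gene, 36. Scaf8 and Sgms1 had 14 each, Dst and Hsd17b10 had 13 each, and Tob1 (8 reads) and Lefty2 (6 reads), a gene of left-right signalling, carried it in a 5'UTR cluster. Clusters with this site held 265 reads, most of them in Npepps and Ube3c.

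Sites of 2 members of the ESC-enriched miR-290 cluster had different shares in the classes, with overlapping intervals. The miR-290a-3p site GGCACTT was in 9 coding and 5'UTR clusters (1.48%) and in 1.13% of 3'UTR clusters, while the miR-294-3p site AGCACTT was in 6 (0.987%) and in 2.04%. In coding clusters alone, 4 had the miR-294-3p site (0.717%, interval 0.196 to 1.83), where 3'UTR clusters had an interval of 1.35 to 2.95. Among the miR-290a-3p sites, Mat2a, the methionine adenosyltransferase gene, had 31 reads, the chromatin remodelling gene Pbrm1 18, Akirin1 13 and the nucleoporin gene Nup153 12. The miR-130a-3p site TTGCACT was in 9 clusters (1.48%), including the second Sox2 5'UTR cluster with 14 reads, and in 1.13% of 3'UTR clusters. Neighbouring sites share bases, so these counts overlap.

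The let-7a-5p site CTACCTC was in a larger share of coding clusters than of 3'UTR clusters in both libraries. In ESCs it was in 8 coding clusters (1.43%, interval 0.621 to 2.81) and 6 3'UTR clusters (0.453%, interval 0.166 to 0.983). In myotubes it was in 3 of 76 coding clusters (3.95%, interval 0.822 to 11.1) and 3 of 363 3'UTR clusters (0.826%, interval 0.171 to 2.40). The intervals overlapped in both libraries. The site holds no G and is rich in C, and coding clusters held more C, so the part of composition in this difference was not tested. The ESC genes were Prrc2c (14 reads), E2f4 and Smarcc1 (12 each), Coro1c (9), Ckap4 (8), Cenpa and Snrnp200 (7 each) and Eif4e2 (6). They include the cell cycle transcription factor E2F4 and the centromeric histone CENP-A. The myotube genes were Anp32e (14), the histone demethylase gene Kdm5c (7) and the checkpoint kinase gene Atr (6).

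Orc5, a subunit of the origin recognition complex, was the only gene with a listed family's site in a coding or 5'UTR cluster of both libraries. Its miR-27b-3p site ACTGTGA lay in overlapping clusters of 16 ESC and 6 myotube reads, all converted. Elsewhere this site was in 1 ESC and 6 myotube 3'UTR clusters. The site of the muscle miRNA miR-206-3p, ACATTCC, was in 4 ESC coding and 5'UTR clusters, in Top2a and Zmynd8 with 9 reads each and in Pcx and Skil with 6 each. In myotubes it was in 0 of 88, beside 1.65% of 3'UTR clusters, and with the same limits for a count of 0 no difference was detectable at this depth.

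**Figure D5:**
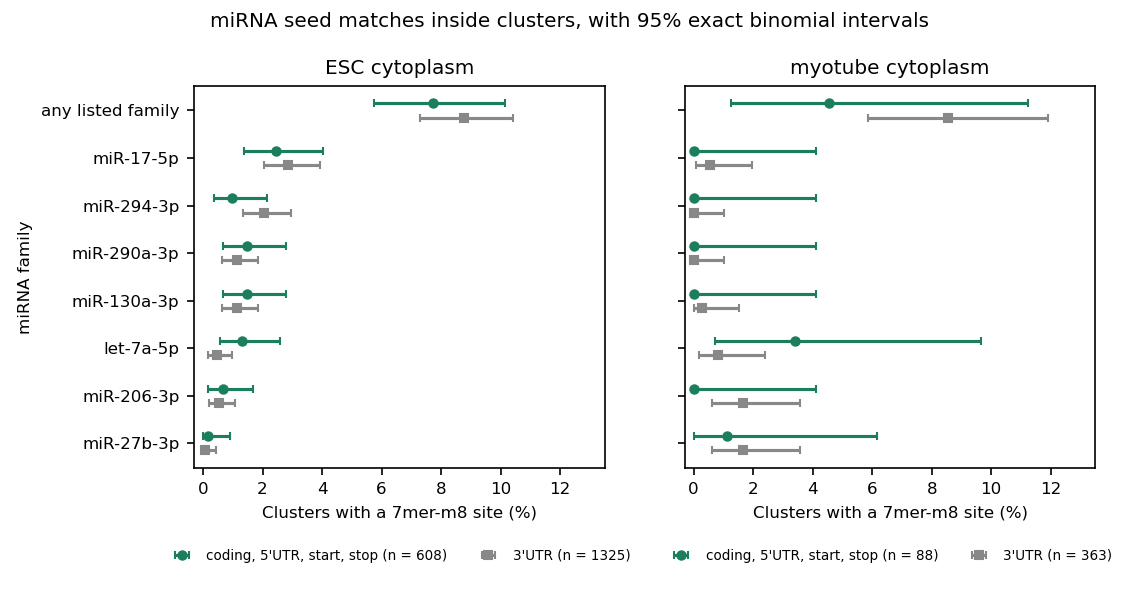
Share of clusters (%) with a 7mer-m8 site of any of the 22 listed families and of 7 single families, in coding and 5'UTR clusters (circles) and 3'UTR clusters (squares) of ESCs (left) and myotubes (right), with 95% exact binomial intervals. For any listed family the ESC values are 7.73% and 8.75% and the myotube values 4.55% and 8.54%.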

How the data were processed

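Cluster tables of the ESC and myotube cytoplasm were used, matched to the labels through the worksheet name. The read, distinct-sequence and conversion columns hold raw counts that the authors deposited per cluster, and the headers name no normalization. Conversion is a fraction of the cluster's reads, per the file headers, and is printed as a percent. The score columns, as deposited by the authors, were not used. The build was mm10 and reads were demultiplexed with bcl2fastq 2.17.1, per the submitters' processing notes, while neither aligner nor cluster caller nor pooling is given in the sources used here. Blank lines (4 in the ESC table, 1 in the myotube table) were dropped.

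Clusters were selected by annotation class and chromosome (Python 3.11.15, pandas 2.3.3). Shares have exact Clopper-Pearson 95% intervals (scipy 1.17.1), medians have order-statistic intervals, and gene ratios of read shares have exact conditional binomial intervals. Depth per table was 214955 and 135023 cluster reads. With 1 library per group, no p-value was computed. Of 541 gene symbols 515 matched RefSeq (GRCm38.p6) and 541 did with synonyms, and date-like symbols were resolved by coordinates (Septin2, for example). Of 37 listed miRNAs, 30 were found in the RefSeq table, in 24 families. Not searched under their own names were miR-1a-3p, miR-133a-3p, miR-302a-3p, miR-23b-3p, miR-135b-5p, miR-122-5p and miR-124-3p. 5'UTR distances used RefSeq starts.

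Genes named are the 12 with the most coding reads and the 8 with the most 5'UTR reads per table, start and stop codon genes, overlapping pairs, genes in both tables, the leading 4 of each gene list and genes with at least 3 coding clusters. Seed-match genes beyond these were named after their values were seen. The members and lists were chosen with earlier results of these data known. Alternatives were a minimum of 10 reads, coding clusters alone, other totals, distinct sequences, other overlaps and other site lengths. Some genes are not reported here by name, though counts include them. The scripts were tested on simulated data.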

Additional observations from a re-analysis of the deposited data

How the results depend on the processing

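With at least 10 reads per cluster, coding and 5'UTR clusters were 18.3% of the ESC and 5.98% of the myotube table. They were then 2.01% and 0.386% of reads, conversion medians were 66.7% and 73.6%, and overlap was 1.34% in ESCs and 10% in myotubes. At this limit the seed share was 10.3% in ESCs, beside 12.8% of 3'UTR clusters. In myotubes it was 3.33% (1 of 30), beside 11.2%. Coding clusters alone were 21.0% of ESC clusters and 2.54% and 0.487% of ESC and myotube reads. Without mitochondrial reads the read shares were 4.29% and 1.31%, and as distinct sequences 11.5% and 2.166%, with medians of 4 and 3 distinct sequences per cluster. Summed over clusters, conversion was 69.8% and 81.3%. Genes lacking a 3'UTR cluster were 57.5% (46 of 80) and 40.0% (2 of 5) among genes with at least 2 clusters, and 49.4% in myotubes with 3'UTR clusters of either table. A 6mer site was in 18.1% of ESC and 14.8% of myotube clusters, beside 18.3% and 19.6% of 3'UTR clusters. An 8mer site was in 2.14% of ESC clusters, beside 3.32% of ESC 3'UTR clusters. Genes at least 2-fold higher in ESCs and in myotubes were 1 and 1 of the 7 genes left with at least 10 reads per cluster. Of the 24 genes they were 3 and 10 without mitochondrial reads, and 2 and 13 with nuclear mRNA reads as the total. Of the reported genes at least 2-fold different, that total changed the sign of Hspa9 (-0.060), Orc5 (-0.091), Septin2 (-0.14) and Ubap2l (-0.26), because a change of total shifts every gene alike. The intervals of these 4 genes then included 0. Of the reported genes under 2-fold, Bsg (-0.76), Chd4 (-0.69), Snx3 (-0.98), Scpep1 (-1.21) and Zdhhc5 (-1.47) also changed sign. The cause of the other shifts was not tested. The other summary values stayed within 1.5 times, for counts, or their interval, and 75 of the ratios of single reported genes stayed within their interval, while 14 left it. The position of coding clusters in the protein was not run, since no protein table was at hand. No paired analysis was possible because each group had 1 library. Depth limits all statements on myotubes, where 88 clusters allow wide intervals only.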

Other observations

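The deposited column for the share of reads ending in G was at 0 in 1011 of the 1069 minus-strand ESC clusters whose sequence ends in G, and in 0 of 896 such plus-strand clusters. Its median was 0 on the minus strand and 0.792 on the plus strand, so the ends given here were read from the sequences instead.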
